A study of Mus musculus with 31 samples.

Results

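The 9 genes of hepatic retinol metabolism described here (9 of 23968 gene names with a measurable probe) were followed across the liver arrays of ChREBPβ-deficient mice, total ChREBP-KO mice and the WT littermates of each line. The genes were Adh1, Adh4, Rdh9, Rdh16, Aldh1a1, Aldh1a7, Cyp26a1, Lrat and Retsat, and they were taken by name, with every probe that carries the name, which gave 12 of 36059 probes. The study chose this pathway from the comparison of total ChREBP-KO with WT liver on these same samples, so that comparison is no independent evidence for the list. ChREBP, encoded by Mlxipl, is a glucose-responsive transcription factor made as a long α form and a shorter β form that starts from its own exon 1b. In ChREBPβ-deficient mice exon 1b was deleted by CRISPR/Cas9, and several mutant lines were derived, without a statement of which one was hybridised. Total ChREBP-KO mice were Mlxipl-null and lacked both forms. All mice were C57BL6/J males of an age not given in the sources used here. All had fasted for 24 h and were then refed for 18 h with food and water that held 20% glucose. No fasted mice were among these arrays. One array per liver was made for 8 ChREBPβ-deficient mice, 8 WT littermates of that line, 7 total ChREBP-KO mice and 8 WT littermates of the total line, and replicate 3 of the total ChREBP-KO group was not analysed here.

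Retinol reaches the liver as dietary retinyl ester and is stored, again as ester, mainly in stellate cells, where LRAT adds the fatty acid. Hepatocytes and other cells oxidise retinol to retinal with alcohol dehydrogenases or with short-chain retinol dehydrogenases, and aldehyde dehydrogenases turn retinal into retinoic acid, the ligand of the RAR nuclear receptors. CYP26 enzymes clear retinoic acid, and Cyp26a1 is itself a textbook target of retinoic acid, so that its mRNA is often read as a gauge of the ligand in liver.

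The promoter stretches below hold the 2 kinds of site that were searched for, a retinoic acid response element and the E-box CACGTG. The paper describes a proposed scheme in which ChREBPα acts through a carbohydrate responsive element. That element was not searched for, so an E-box match alone is not taken as a ChREBP site. RefSeq (GRCm38.p6) windows of 300 bases, from 250 bases before to 50 after a transcription start, were found for 9 of 9 genes (10 windows). A DR5 element, which is 2 copies of the nuclear receptor core site with a spacer of 5 bases, was present in 32 of 32851 windows (0.0974%) on either strand. Among the retinol metabolism genes it was found for Cyp26a1 alone (chr19:37697769-37697798, gene on the plus strand, match on the opposite strand, 15 to 32 bases before the start). The retinoic acid receptor gene Rarb, a standard comparison, held one too (chr14:16575507-16575536, gene on the minus strand, 36 to 53 bases before the start). The E-box CACGTG, whose sequence reads the same on both strands, was present in 2349 windows (7.15%) and in those of Adh1 (chr3:138277577-138277606, just after the start) and Rdh9 (chr10:127776192-127776221). Each is given 5′ to 3′ on the gene's strand, with the matched letters in capitals. They describe the letters in these windows and no binding was measured.
Cyp26a1, DR5: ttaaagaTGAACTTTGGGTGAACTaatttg
Rarb, DR5: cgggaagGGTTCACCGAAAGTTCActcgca
Adh1, E-box: aaagggccagatCACGTGtgggatcagctg
Rdh9, E-box: cacatatattccCACGTGagtccaggaagc

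Expression was read on 1-colour Agilent arrays with Cy3. Levels are given as log2 of the quantile-normalised median spot signal, 1 unit being a doubling, and differences as log2 differences between group means with the standard error (SE) of the limma fit over all 31 arrays. A gene was called where the p-value adjusted over all 36059 probes was under 0.05, and its value is that of its brightest probe unless another is named. Levels of different genes come from different probes and were not set against each other. Between 34131 and 38612 spots per array passed the study's quality rule. Mlxipl, the targeted gene, was lower in both mutants by its brightest probe (-1.16 ± 0.07 in total ChREBP-KO, adjusted p = 8.1e-13, and -0.45 ± 0.07 in ChREBPβ-deficient mice, adjusted p = 0.015), with no overlap with WT littermates in either line. Another Mlxipl probe did not pass the test in either line (-0.05 and -0.06). The 7 hepatocyte markers were bright in all groups. The 3 WT arrays of the total line numbered 2, 7 and 8 carried exocrine pancreas transcripts and 2 total ChREBP-KO arrays (replicates 1 and 4) stood apart in stellate cell markers, and where a call on a retinol metabolism gene was gained or lost without them, this is stated below.

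In total ChREBP-KO liver 7 of the 9 retinol metabolism genes were higher than in WT littermates and none was lower. Over all genes tested, 14.4% were called higher and 14.8% lower in the same comparison (29.3% in all). At an unadjusted p under 0.05 there were 8 of the 9, against 38.3% of all genes. Adh1, Adh4, Rdh9, Rdh16, Aldh1a1, Cyp26a1 and Retsat passed, while Lrat (0.65 ± 0.26, adjusted p = 0.055) and Aldh1a7 (0.08 ± 0.09, adjusted p = 0.54) did not. The differences ran from 0.08 to 1.73 on the log2 scale with a median of 0.67, against a median of 0.01 over all genes. For 3 of the 9, Adh1, Rdh9 and Rdh16, every knockout array lay above every WT littermate array, which was the case for 3.3% of all genes, and none lay entirely below (4.45% of all genes). Without the 3 arrays with pancreas transcripts the count stayed at 7, and without the 2 arrays high in stellate cell markers it was 6, since Cyp26a1 then had an adjusted p of 0.063. The study picked the pathway on these arrays, so the counts describe it and are not a test of it.

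**Figure D1:**
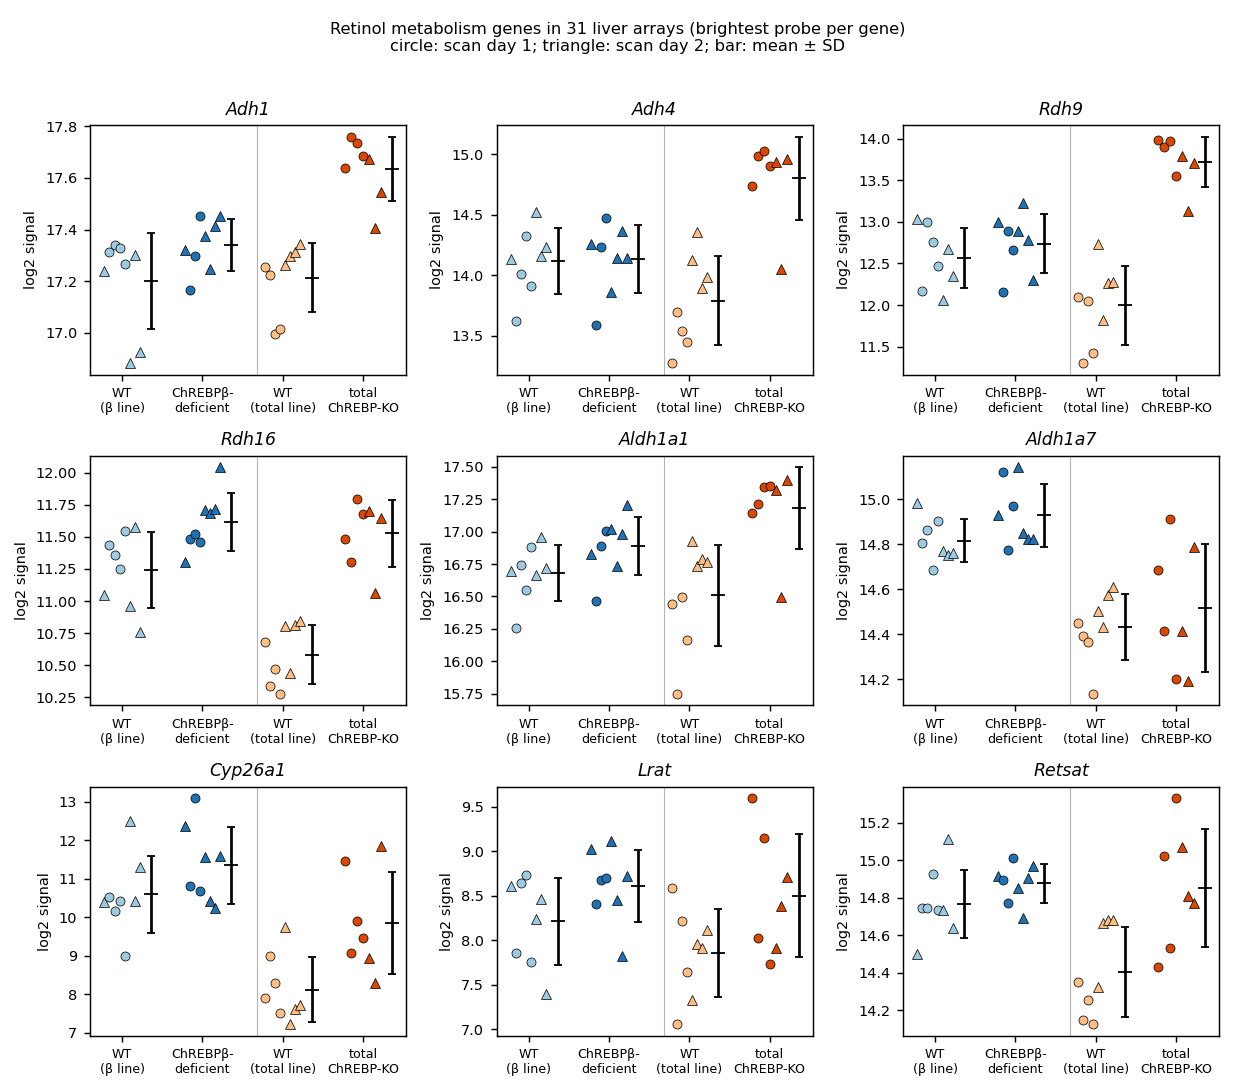
Log2 signal (y axis) of the 9 retinol metabolism genes on each of the 31 arrays, by group, with circles for scan day 1, triangles for scan day 2, and the mean ± SD of each group beside its points. The 7 total ChREBP-KO arrays sit above all 8 WT littermate arrays for Adh1, Rdh9 and Rdh16, and the WT littermates of the total line are the lowest group for Cyp26a1, with values of 7.22 to 9.74.

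The alcohol dehydrogenases oxidise retinol among many other alcohols. Adh1, the abundant class I enzyme of liver (probe at chr3:137952821-137952880 of the mouse build mm9, in which the array gives all probe positions), ranged from 17.40 to 17.76 in total ChREBP-KO mice with a median of 17.67. In WT littermates it ranged from 17.00 to 17.34 with a median of 17.26. The groups did not overlap, and the difference was 0.42 ± 0.07 (1.34-fold, adjusted p = 4.6e-05). A second Adh1 probe, which spans spliced sequence at chr3:137943475-137945457, gave 0.47 ± 0.09 (adjusted p = 3.0e-04), with group ranges of 14.85 to 15.26 and 14.38 to 14.94 that overlapped. The remaining one, at chr3:137945024-137945083, has its coordinates written in the opposite direction to the others, was dim (4.44 to 5.51 in the 2 groups of the total line) and did not pass (0.20 ± 0.13, adjusted p = 0.24).

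Adh4, the class II alcohol dehydrogenase, which also acts on retinol, changed by more (chr3:138093716-138093775). It ranged from 14.05 to 15.03 in total ChREBP-KO mice (median 14.94) and from 13.27 to 14.35 in WT littermates (median 13.80). Only knockout replicate 7, at 14.05, fell within the WT range, and the next lowest knockout value was 14.74. The difference was 1.01 ± 0.16 (2.02-fold, adjusted p = 1.0e-05). In RefSeq both genes lie in 1 cluster of alcohol dehydrogenases, at whose ends Adh7 (-0.12 ± 0.13, adjusted p = 0.51) and Adh5 (0.01 ± 0.04, adjusted p = 0.93) did not pass the test.

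The short-chain dehydrogenases Rdh9 and Rdh16, known from cis-retinol and androgen oxidation, gave the lowest adjusted p-values of the 9 genes. Rdh9 (chr10:127229690-127229748) ranged from 13.13 to 13.99 in total ChREBP-KO liver, with a median of 13.80. WT littermates ranged from 11.30 to 12.74, with a median of 12.08. All knockout arrays were above all WT arrays, and the difference was 1.72 ± 0.19 (3.30-fold, adjusted p = 2.5e-08). The second Rdh9 probe, at chr10:127213451-127213510, moved far less (0.21 ± 0.08, adjusted p = 0.041) and its ranges overlapped, 8.48 to 8.76 in knockout and 8.15 to 8.63 in WT mice. That weaker call was lost on leaving out any one of 8 single arrays (the largest adjusted p was 0.097) and with the exact Mann-Whitney test (0.12), among other alternatives, so the size of the Rdh9 change depends on the probe.

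Rdh16 (chr10:127252579-127252638) ranged from 11.07 to 11.80 in total ChREBP-KO mice (median 11.65) and from 10.28 to 10.84 in WT littermates (median 10.58). The groups did not overlap, and the difference was 0.94 ± 0.13 (1.92-fold, adjusted p = 9.5e-07). Rdh9 and Rdh16 are next to each other in RefSeq, in a row of related dehydrogenase genes that begins with Rdh1 and ends with Rdh7. The other measured genes of the row did not pass the test, with -0.11 ± 0.12 for Rdh1 (adjusted p = 0.53), 0.20 ± 0.08 for Rdh19 (adjusted p = 0.064) and 0.14 ± 0.06 for Rdh7 (adjusted p = 0.078). Rdh7 was called higher with the deposited values (0.19, adjusted p = 0.0036), with scan day or replicate number as a block (adjusted p = 0.027 in each) and without the arrays with pancreas transcripts (0.034) or high in stellate cell markers (0.038). Genes of this row share sequence, and whether a probe also reads a neighbour was not tested.

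Aldh1a1 encodes the retinaldehyde dehydrogenase of adult liver (chr19:20717764-20717823). It ranged from 16.50 to 17.40 in total ChREBP-KO mice (median 17.32) and from 15.75 to 16.93 in WT littermates (median 16.61). The other 6 knockout arrays lay above the WT range while replicate 7, at 16.50, lay within it. The difference was 0.67 ± 0.15 (1.59-fold, adjusted p = 6.7e-04). Aldh1a7, its close paralog on the same chromosome (chr19:20767553-20767612), ranged from 14.19 to 14.91 in knockout and from 14.14 to 14.61 in WT mice, with medians of 14.42 and 14.44. These ranges overlapped and the 95% confidence interval of the difference ran from -0.10 to 0.26.

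Cyp26a1, the retinoic acid hydroxylase whose promoter DR5 is printed above, varied most from mouse to mouse (chr19:37775566-37775625). Total ChREBP-KO mice ranged from 8.29 to 11.85 with a median of 9.47, and the SD over the 7 arrays was 1.33. WT littermates ranged from 7.22 to 9.74 with a median of 7.82 and an SD of 0.85. The groups overlapped, with 3 knockout arrays (replicates 1, 4 and 8) above the highest WT value. The difference was 1.73 ± 0.51 (3.32-fold, adjusted p = 0.010), and on leaving out each array in turn the adjusted p stayed between 0.0040 and 0.036.

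Lrat, which esterifies retinol for storage, ranged from 7.73 to 9.60 in total ChREBP-KO mice (median 8.38, chr3:82696805-82696864). In WT littermates it ranged from 7.05 to 8.59 (median 7.94). The ranges overlapped and the difference of 0.65 ± 0.26 missed the threshold (adjusted p = 0.055), on either side of which it fell when 1 array was left out (0.024 to 0.17). It passed with slide as a random block (0.68, adjusted p = 0.039), the same block held fixed (0.99 at an adjusted p of 0.014) and the replicate number as a block (0.69, adjusted p = 0.014), each of which brought the genes called higher to 8. Among 11 other stellate cell markers, 4 were higher in total ChREBP-KO liver (Reln 0.80, Colec11 0.50, Dcn 0.40 and Hhip 0.40) and none lower. Of all genes, 14.4% were called higher and 14.8% lower. Their mean log2 signal ranged from 9.25 to 10.16 in knockout and from 9.02 to 9.47 in WT mice. Knockout replicates 1 and 4, which held the 2 highest marker means (10.16 in replicate 1), also held the 2 highest Lrat values (9.60 and 9.15). Without these 2 arrays the Lrat difference was 0.30 ± 0.24 (adjusted p = 0.41). Reln (0.68, adjusted p = 0.0016) and Dcn (0.25, adjusted p = 0.034) then stayed higher. Colec11 (0.38, adjusted p = 0.11) and Hhip (0.38, adjusted p = 0.088) lost their calls, and Pdgfrb was lower (-0.34, adjusted p = 0.0024). The 2 arrays were set aside by these same markers. In bulk liver, a change in the number of cells of one type and a change of RNA per cell cannot be told apart, and the part of the markers in the Lrat result was not tested.

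**Figure D2:**
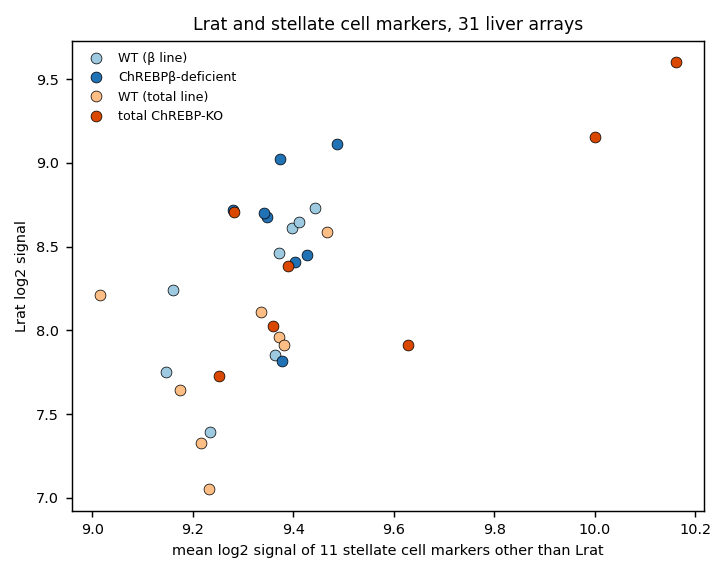
Log2 signal of Lrat (y axis) against the mean log2 signal of 11 other stellate cell markers (x axis), 1 point per array and 1 colour per group. The 2 total ChREBP-KO arrays at the upper right had Lrat values of 9.60 and 9.15, and no other array had a marker mean above 9.63.

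Retsat, the saturase that reduces retinol to dihydroretinol, ranged from 14.43 to 15.33 in total ChREBP-KO mice (median 14.81, chr6:72556656-72556715) and from 14.13 to 14.68 in WT littermates (median 14.34). Of the 7 knockout arrays, 2 lay inside the WT range and 5 above it. The difference was 0.45 ± 0.11 (1.36-fold, adjusted p = 0.0024).

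Arrays were scanned on 2 days, each of which held all 4 groups, and the comparison was also made within each. On scan day 1 (4 knockout and 4 WT arrays) 7 of the 9 genes were called higher, and on scan day 2 (3 and 4 arrays) 2 were, Rdh9 (1.27, adjusted p = 0.0035) and Rdh16 (0.75, adjusted p = 0.021). Over all probes, 5806 were called in either direction on scan day 1 and 4762 on scan day 2, against 10477 on all arrays. Differences were larger on scan day 1 for all 9 genes. For Adh4 they were 1.43 and 0.56, for Aldh1a1 1.05 and 0.27, for Adh1 0.58 and 0.24, and for Rdh9 2.13 and 1.27. For Cyp26a1 they were 1.80 and 1.62, with adjusted p-values of 0.049 and 0.21. Aldh1a7 changed sign (0.22 and -0.07), and the difference between days itself was not tested.

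No retinol metabolism gene was called in ChREBPβ-deficient liver, where 0.00417% of all genes (Mlxipl alone) were called by the same test. At an unadjusted p under 0.05 there was 1 of 9, Rdh16, against 5.06% of all genes. The exact Mann-Whitney test called no probe at all after adjustment, Mlxipl included, so its result says nothing on these genes. No member was without overlap between groups, against 0.0125% of all genes entirely above and 0.0209% entirely below. All 9 differences were positive, from 0.02 for Adh4 to 0.75 for Cyp26a1, where 11549 of all 23968 genes were positive. Within scan day 1 Adh1 and Rdh9 were negative (-0.0068 and -0.029). The sign of Adh4 changed under 6 of 16 alternatives. Rdh16 ranged from 11.31 to 12.04 in ChREBPβ-deficient mice (median 11.60) and from 10.76 to 11.58 in WT littermates (median 11.31). Its groups overlapped and the difference was 0.37 ± 0.12 (adjusted p = 0.91, 95% confidence interval 0.12 to 0.62). Cyp26a1 ranged from 10.25 to 13.10 and from 9.0 to 12.51, with a difference of 0.75 ± 0.49 (95% confidence interval -0.25 to 1.76), which did not pass. By its brightest probe the interval of Rdh9 ran from -0.19 to 0.54, and that of Adh4 ran from -0.29 to 0.33. For these 2 probes the upper limits stayed below the differences seen in total ChREBP-KO mice. The interval of the second Rdh9 probe, -0.03 to 0.27, included its own total ChREBP-KO difference of 0.21. The wide intervals of Cyp26a1 and Lrat (-0.10 to 0.91) do not separate the 2 deficiencies.

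The test of the difference between the total and the β effects called 3 of the 9 genes, all larger in the total line, against 7.09% of all genes called in that direction and 8.25% in the other (15.3% in all). At an unadjusted p under 0.05 there were 6 of 9, against 27.9% of all genes. The 3 called genes were Rdh9 (1.55 ± 0.26, adjusted p = 8.9e-05), Adh4 (0.99 ± 0.22, adjusted p = 0.0018) and Rdh16 (0.57 ± 0.18, adjusted p = 0.024). The second Rdh9 probe did not pass (0.09 ± 0.11, adjusted p = 0.65). Adh1 (0.28 ± 0.10, adjusted p = 0.058), Aldh1a1 (0.47 ± 0.20, adjusted p = 0.12), Retsat (0.34 ± 0.15, adjusted p = 0.14), Cyp26a1 (0.97 ± 0.71, adjusted p = 0.40), Lrat (0.25 ± 0.36, adjusted p = 0.71) and Aldh1a7 (-0.03 ± 0.12, adjusted p = 0.91) did not pass. Without total ChREBP-KO replicate 7 the count was 5, with Adh1 (0.32, adjusted p = 0.028) and Aldh1a1 (0.58, adjusted p = 0.031) added. Adh1 passed in 4 of the 31 fits that leave out 1 array. It also passed with a filter requiring every array (adjusted p = 0.047) and with the trended, robust limma fit (0.045). Within scan day 1 Adh1 passed at 0.59 (adjusted p = 0.014), while scan day 2 gave -0.037. Rdh16 lost its call when slide entered the fit as a fixed block (0.62 at an adjusted p of 0.063), without the arrays high in stellate cell markers (0.53, adjusted p = 0.057, with Retsat gained at 0.49, adjusted p = 0.019) and within scan day 2 (0.14, adjusted p = 0.84), on which none of the 9 passed. Without the arrays with pancreas transcripts Adh1 was added (0.33, adjusted p = 0.044), which made 4. This test contains the comparison from which the pathway was chosen, so the excess of larger total effects is no independent evidence either.

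**Figure D3:**
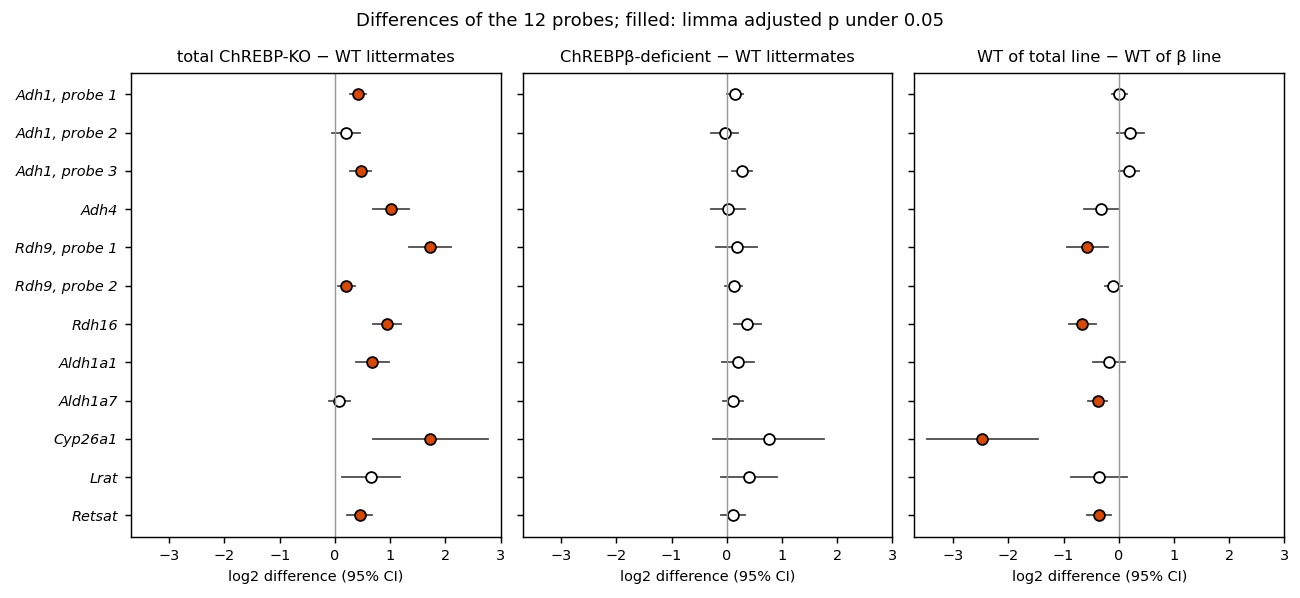
Log2 differences (x axis, points) with 95% confidence intervals (lines) for the 12 probes in 3 comparisons, filled where the limma adjusted p is under 0.05. In the left panel 9 probes are filled, in the middle panel none, and in the right panel 5, all to the left of 0, with Cyp26a1 at -2.47.

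The 2 groups of WT littermates were not alike. WT mice of the total line were lower than WT mice of the β line for 5 of the 9 genes, where 9.36% of all genes were called lower and 7.79% higher (17.1% in all). At an unadjusted p under 0.05 there were 6 of 9, against 30.8% of all genes. Cyp26a1 had the largest of these differences (-2.47 ± 0.49, adjusted p = 7.9e-04), a level 5.53-fold lower, with 7.22 to 9.74 in the total line and 9.0 to 12.51 in the β line. Rdh16 (-0.66 ± 0.12, adjusted p = 3.3e-04), Rdh9 (-0.57 ± 0.18, adjusted p = 0.029), Aldh1a7 (-0.38 ± 0.09, adjusted p = 0.0025) and Retsat (-0.36 ± 0.11, adjusted p = 0.018) were lower as well. The second Rdh9 probe did not pass (-0.10 ± 0.07, adjusted p = 0.38). Aldh1a7, from 14.14 to 14.61 in the total line and from 14.69 to 14.98 in the β line, was the one gene without overlap, which held for 1.32% of all genes, with 0.701% entirely above. Adh1 (0.01), Aldh1a1 (-0.17), Adh4 (-0.33) and Lrat (-0.36) did not pass the test. The Rdh9 call was lost without the arrays with pancreas transcripts (-0.54, adjusted p = 0.076, leaving 4 genes), with the exact Mann-Whitney test (adjusted p = 0.10), within scan day 2 (adjusted p = 0.63) and in 5 of the 31 fits that leave out 1 array. Within scan day 2 Rdh16 (-0.36, adjusted p = 0.31), Aldh1a7 (-0.29, adjusted p = 0.17) and Retsat (-0.16, adjusted p = 0.54) lost their calls too. Within scan day 1 Cyp26a1 lost its call (-1.85, adjusted p = 0.072). With slide as a fixed block only Rdh16 was called lower. The WT arrays of the total line are those from whose comparison the pathway was chosen, so this count is not independent of that choice. Other markers moved with the same gap. The pericentral markers Oat (-0.98, adjusted p = 1.1e-05) and Cyp2e1 (-0.27, adjusted p = 0.0026) were lower in WT mice of the total line, 2 of 9 in all, with overlapping summed levels of 17.91 to 18.42 against 18.36 to 18.72. Periportal markers also ran lower, 7 of 8 negative with a median of -0.28, against 6 of 9 and -0.22 for pericentral ones. Of those 8, Arg1 alone was called (adjusted p = 0.048). The red blood cell markers Hba-a1 (1.05, adjusted p = 2.7e-05) and Hbb-b1 (1.04, adjusted p = 7.4e-04) were higher, 2 of 4, with summed levels of 16.83 to 17.33 against 15.50 to 16.57, and so were 3 of 5 exocrine pancreas markers, with summed levels of 11.37 to 14.32 against 11.23 to 11.89. Their part in the result was not tested. Litter, housing and line cannot be told apart in this comparison.

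Because of that gap, the direction for some genes depended on the WT group used. Against the WT mice of the β line, a comparison chosen after seeing the data, total ChREBP-KO mice had 4 genes called higher and 1 lower, where 14.1% and 16% of all genes were called. Rdh9 (1.16 ± 0.19, adjusted p = 1.8e-05), Adh4 (0.69 ± 0.16, adjusted p = 0.0011), Aldh1a1 (0.50 ± 0.15, adjusted p = 0.0092) and Adh1 (0.43 ± 0.07, adjusted p = 3.0e-05) were higher under both WT groups. The second Rdh9 probe did not pass against WT mice of the β line (0.11 ± 0.08, adjusted p = 0.31). Cyp26a1 turned to -0.74 ± 0.51 (adjusted p = 0.29), and Retsat (0.09, adjusted p = 0.60) and Rdh16 (0.28, adjusted p = 0.089) lost their calls. Aldh1a7 was lower (-0.30 ± 0.09, adjusted p = 0.011). The level of Cyp26a1 thus ran from 10.25 to 13.10 in ChREBPβ-deficient, 9.0 to 12.51 in WT of that line, 8.29 to 11.85 in total ChREBP-KO and 7.22 to 9.74 in WT of the total line. Neighbours in this order overlapped.

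The wider retinoid system was read from 53 other genes of 7 roles, 45 of which had a kept probe. In total ChREBP-KO liver 5 were called higher and 7 lower, beside the 14.4% and 14.8% of all genes, and their median difference was 0.07. In ChREBPβ-deficient liver none was called, with 2 at an unadjusted p under 0.05 and a median of 0.06. Without the arrays with pancreas transcripts, 8 rather than 5 were called higher in total ChREBP-KO liver.

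Among carriers, Ttr, the plasma carrier of the retinol-binding protein complex, was 0.17 ± 0.05 higher by its brightest probe (adjusted p = 0.011), but its other probe gave -0.22 (adjusted p = 0.12), and the call was lost when signals were scaled to the 75th percentile (adjusted p = 0.11 with processed and 0.16 with median signals). Rbp4, which carries retinol in plasma, did not pass (0.10 ± 0.04, adjusted p = 0.078), but did with normexp background correction (0.047), scan day as a block (0.037), the exact Mann-Whitney test (0.042) and the trended, robust limma fit (0.038). Stra6l, a retinol uptake receptor of liver, was lower (-0.48 ± 0.09, adjusted p = 1.5e-04). Of the esterases and acyltransferases, the carboxylesterase genes Ces1d (0.62 ± 0.13, adjusted p = 5.6e-04) and Ces1g (0.62 ± 0.20, adjusted p = 0.019) were higher. Pnpla3, a lipid droplet hydrolase that can act on retinyl esters and is known as a lipogenic gene, was lower by 14.9-fold (-3.90 ± 0.44, adjusted p = 5.1e-08). Its second probe gave -2.15 (adjusted p = 2.2e-06). Awat2, an acyltransferase, was lower by -0.28 ± 0.07 (adjusted p = 0.0045). Ces1g, Awat2 and Hsd17b6 below were chosen after their values were seen.

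Among the other oxidoreductases Hsd17b6, a relative of the Rdh genes, was higher (1.34 ± 0.31, adjusted p = 0.0015). Dhrs3, which reduces retinal back to retinol and is itself induced by retinoic acid, was lower (-0.46 ± 0.08, adjusted p = 9.9e-05) with no overlap between groups. The aldehyde oxidases went opposite ways, with Aox3 at 0.87 ± 0.13 (adjusted p = 9.6e-06, all 3 probes higher) and Aox1 at -0.36 ± 0.13 (adjusted p = 0.036). The Aox1 call was lost in 9 of the 31 fits that leave out 1 array and without the arrays with pancreas transcripts (0.080) or high in stellate cell markers (0.21). Bco1, which cleaves carotene to retinal, was lower (-0.79 ± 0.11, adjusted p = 9.4e-07). Of 6 retinoid receptors only Rxrg was called (-0.74 ± 0.11, adjusted p = 2.7e-06), while Rxra (0.17 ± 0.10, adjusted p = 0.23) and Rarb (0.32 ± 0.24, adjusted p = 0.35) were not. A second Rxra probe was called higher (0.29, adjusted p = 0.026).

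**Figure D4:**
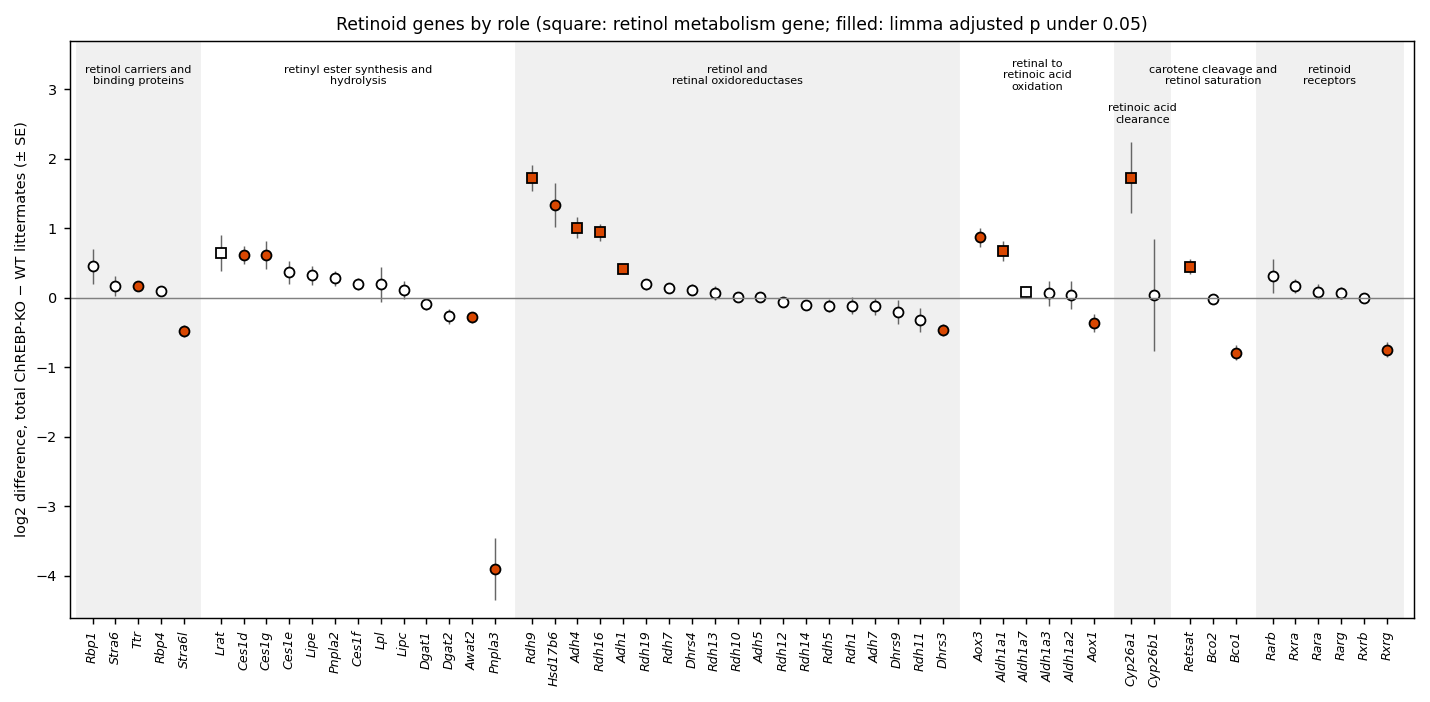
Log2 difference of total ChREBP-KO minus WT littermates (y axis, with SE bars) for every retinoid gene with a kept probe, in 7 shaded or plain blocks by role. Squares are the 9 retinol metabolism genes, and filled symbols have a limma adjusted p under 0.05; Rdh9 and Cyp26a1 are highest at 1.72 and 1.73, and Pnpla3 is lowest at -3.90.

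Retinoic acid response genes did not share one direction. Of 8 measured, Cyp26a1 was higher, Dhrs3 lower, and 6 did not pass the test, among them Rarb, whose window holds the other DR5 printed above. Their median difference was 0.27, against 0.01 over all genes.

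Markers of the pericentral zone, the hepatocytes around the central vein, also moved in total ChREBP-KO liver. Of 9 markers, 6 were called higher and none lower, among them Cyp1a2 (1.5 ± 0.21), Slc1a2 (1.29 ± 0.13), Oat (0.79 ± 0.14) and Cyp2e1 (0.69 ± 0.06). Their summed signal on the log2 scale ranged from 18.59 to 18.99 in knockout and from 17.91 to 18.42 in WT littermates, with no overlap. This sum is led by the brightest probes, and the mean log2 signal of the same 9 markers, 11.95 to 12.67 in knockout and 11.41 to 12.09 in WT mice, did overlap. Glul, the marker of the innermost layer, gave 0.03 ± 0.17 (adjusted p = 0.92). None of 8 periportal markers was called. In ChREBPβ-deficient liver no pericentral marker was called. The part of the pericentral markers in the retinol metabolism results was not tested.

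To see which genes varied together from mouse to mouse, the deviation of each array from its group mean was correlated over 31 arrays. Of 36 pairs, 30 were positive, a share that was not set against pairs of other genes. A permutation test within groups was passed by 4 pairs after Benjamini-Hochberg adjustment over the 36. They were Adh1 with Rdh16 (Pearson's r = 0.65, Spearman's rho = 0.57, permutation p-values of 0.00032 and 0.0017, adjusted p = 0.012), Adh4 with Aldh1a1 (r = 0.64, rho = 0.51, permutation p-values of 0.0012 and 0.0075, adjusted p = 0.014), Aldh1a1 with Rdh9 (r = 0.59, rho = 0.31, permutation p-values of 0.0016 and 0.12, adjusted p = 0.015) and Aldh1a1 with Rdh16 (r = 0.58, rho = 0.66, permutation p-values of 0.00064 and 0.00019, adjusted p = 0.012). By rank correlation 2 of these 4 passed, Aldh1a1 with Rdh16 (adjusted p = 0.0068) and Adh1 with Rdh16 (adjusted p = 0.021), and so did another pair, Adh1 with Retsat (rho = 0.55, adjusted p = 0.021). Without the 2 arrays farthest from the median of the first gene the r of these pairs fell to 0.56, 0.47, 0.41 and 0.48, and none passed. Within scan day 1 they were 0.50, 0.50, 0.76 and 0.48, and within scan day 2 they were 0.76, 0.68, 0.40 and 0.71, and none of the 4 passed. On scan day 1 a different pair passed, Rdh9 with Lrat (r = 0.68). Cyp26a1 did not pass with any other gene, and its strongest value was an r of -0.35 with Retsat.

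**Figure D5:**
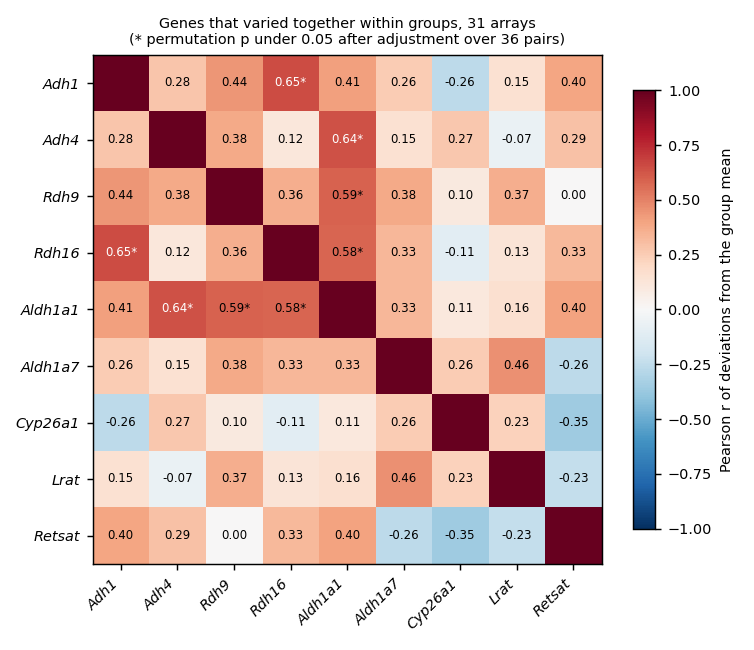
Pearson's r between deviations from the group mean for each pair of the 9 genes over 31 arrays, coloured from -1 (blue) to 1 (red), with a star where the adjusted permutation p is under 0.05. The 4 starred pairs, with r of 0.58 to 0.65, join Adh1, Adh4, Rdh9, Rdh16 and Aldh1a1.

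The same deviations were used to name, over all probes, the 3 genes most like each retinol metabolism gene, as a description with no test. Lrat was most like Dennd2a (r = 0.86), Rarb (0.85) and Cyp26b1 (0.84), a receptor and a clearing enzyme of retinoic acid. Cyp26b1 itself gave 0.05 ± 0.81 in total ChREBP-KO mice. Rdh9 had the closest partners of all, the noncoding transcript Gm30948 (0.98) and 1 probe of Cenpq (0.97). Aldh1a1 was most like Lect2 (0.89), Tti1 (0.89) and Cyp2c50 (0.86), Adh4 like Wbp1 (0.89) and Hsd3b2 (0.84), and Cyp26a1 like Osbpl6 (0.85). Retsat was most like Ehhadh (0.78), Masp2 (0.75) and Acaa2 (0.75), of which Ehhadh and Acaa2 belong to fatty acid oxidation. Adh1 was most like Inmt (0.78) and Car14 (0.76) among named genes, Rdh16 like Mme (0.74), and Aldh1a7 like Gm32282 (0.77).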

How the data were processed

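Liver RNA was hybridised to 1-colour Agilent mouse arrays, and images were read by the authors with Feature Extraction 10.10.1.1 per the labels. The deposited scanner files hold the spot intensity, and a deposited table holds the authors' quantile-normalised log2 values, used as an alternative. Here the log2 median signal, without background subtraction, was kept for spots that passed the authors' flags (found, positive and significant, well above background) on 26 or more arrays or on 6 of any 1 group (38721 of 59305 non-control spots, 65.3%), then quantile normalised, with the median over spots of a probe. These values correlated with the deposited ones at r = 0.999995. Precision is limited by the number of arrays. No member spot of 372 was saturated.

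Groups were compared with limma 3.58.1 in R 4.3.3 over 31 arrays and 4 groups, with Benjamini-Hochberg adjustment over 36059 probes and a threshold of 0.05. A figure legend that covers the array counts together with other assays names a Mann-Whitney test, and the labels list limma, so which was used on the arrays is unclear. The Mann-Whitney test was an alternative here. A gene's value is its brightest kept probe. Nothing in the labels ties same-numbered mice of 2 groups to each other, and p-values measure the spread between these mice. Deviations from group means were compared by 100000 permutations within groups. The steps were tested on simulated data.

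Named genes were all 9 members, Mlxipl, the called wider retinoid gene with the largest change in each direction per role, Rarb, Dhrs3, Rxra, Rbp4, Rdh1 and Rdh7, and the 3 most similar genes per member, not all of which are reported here. Adh5, Adh7, Rdh19, Cyp26b1, Ces1g, Awat2 and Hsd17b6 were added after their values were seen. The members and lists were chosen with earlier results of these data known. Alternatives covered background correction, scaling, spot filters, the deposited values, slide, scan day, replicate block, other tests and leaving out arrays.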

Additional observations from a re-analysis of the deposited data

Results flagged for a closer look

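Among 48 groups of probe values tested for a single stray array, 3 held one, where chance gives about 1 in 20. Total ChREBP-KO replicate 7 was low for Adh4 (14.05, the next value being 14.74) and for Aldh1a1 (16.50, the next being 17.14). WT replicate 5 of the total line was low for the dim Adh1 probe (4.44, the next being 5.0).

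The effect of total ChREBP loss differed from that of ChREBPβ loss by the test of the difference itself for Rdh9 (1.55), Adh4 (0.99) and Rdh16 (0.57). Rdh9 passed by its brightest probe alone, since its second probe gave 0.09 (adjusted p = 0.65). Rdh16 lost this call when slide entered the fit as a fixed block (at an adjusted p of 0.063), without the arrays high in stellate cell markers (0.057) and within scan day 2 (0.84), and within scan day 2 so did Rdh9 (0.12) and Adh4 (0.15). In the wider retinoid system the same test passed for 9 of 45 genes with a kept probe, where 15.3% of all genes passed. They were Hsd17b6 (1.61), Aox3 (0.84), Awat2 (-0.41), Aox1 (-0.51), Bco1 (-0.69), Dhrs3 (-0.59), Pnpla3 (-3.79), Rxrg (-1.0) and Stra6l (-0.57), all as log2 differences of differences. Hsd17b6 and Awat2 lie outside the naming rule and were named after their values were seen.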

How the results depend on the processing

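The 7 calls in total ChREBP-KO liver kept their direction under the alternatives within the total line, and all 7 held except within scan day 2 and, for Cyp26a1, without the arrays high in stellate cell markers. Values near 0 changed sign. The cause of the changes below was not tested.

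With the deposited values, median or processed signals scaled to the 75th percentile, scan day or slide as a fixed block, Adh4 in ChREBPβ-deficient mice was -0.0056, -0.039, -0.035, -0.0040 and -0.0091. The difference of effects for Aldh1a7 was 0.0056, 0.0060 and 0.023 under the first 3. Ttr was -0.027 by the median of its probes. ChREBPβ-deficient calls numbered 2 probes with processed signals and 0 with the exact Mann-Whitney test, the line fitted alone, slide fixed, replicate block and either scan day. Requiring every array kept 19620 of the 36059 probes. Of these, 6925 were called in total ChREBP-KO and 3912 between WT groups, with 1 other retinoid gene called for a larger total effect. Between WT groups the Mann-Whitney test called 3740 probes and 1 other retinoid gene higher, and slide as a fixed block called 2098 probes, 1 member lower, 1 other retinoid gene higher, with Adh1 at -0.059.

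Within scan day 1, 5806 probes were called in total ChREBP-KO, 1520 for the difference of effects (other retinoid genes 1 higher, 3 lower) and 2290 between WT groups (1 higher, 5 lower), with 1 correlated pair. Adh1 and Rdh9 in ChREBPβ-deficient mice were -0.0068 and -0.029, Aldh1a7's difference of effects was 0.077, and Adh1 between WT groups was -0.19 and, by its second bright probe, -0.073. Within scan day 2, 4762 probes, 2 members and 2 other retinoid genes were called higher or changed in total ChREBP-KO, 1990 probes, 0 members and 3 lower retinoid genes for the difference of effects, and 1514 probes, 1 member lower and 1 other gene higher between WT groups, with 0 correlated pairs, as without the 2 farthest arrays. Aldh1a7 was -0.066 in total ChREBP-KO, Adh4 -0.11 and the dim Adh1 probe 0.089 in ChREBPβ-deficient mice, Adh1 -0.037 and -0.185 for the difference of effects by its 2 bright probes, and Aldh1a1 0.043 between WT groups.

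Chosen after seeing the data, total ChREBP-KO against WT of the other line gave 4 members higher, 1 lower and 12 other retinoid genes lower, with Aldh1a7 -0.30, Cyp26a1 -0.74, Rarb -0.20 and Rdh1 0.073. Against the mean of both WT groups Aldh1a7 was -0.11 and the Cyp26a1 call was lost (0.50, adjusted p = 0.44). Without the arrays high in stellate cell markers Aldh1a7 was -0.031, Rdh1 0.0053 and Lrat's difference of effects -0.10. Without the arrays with pancreas markers 8 other retinoid genes were higher, 1 was higher between WT groups, Aldh1a7's difference of effects was 0.025 and Adh1 between WT groups was -0.035.

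The deviations of same-numbered mice correlated above a low cutoff in 2 of 7 pairs of the total line (correlations of -0.21 to 0.24) and 6 of 8 of the β line (-0.16 to 0.53). These correlations were not tested. Since neither the labels nor every pair ties same-numbered mice, they were not treated as pairs. With the replicate block 10549 probes and 8 members, Lrat added at 0.69 (adjusted p = 0.014), were called in total ChREBP-KO.

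On leaving out each array in turn, members called higher in total ChREBP-KO numbered 7 to 8, members with a larger total effect 3 to 5 (5 without total ChREBP-KO replicate 7), ChREBPβ-deficient calls 0 to 2 probes, and other retinoid genes higher between WT groups 1 to 3. Adh4 ran from -0.050 to 0.098 and the dim Adh1 probe from -0.12 to 0.0081 in ChREBPβ-deficient mice, Adh1 between WT groups from -0.032 to 0.044, and the difference of effects for Aldh1a7 from -0.097 to 0.023.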
